A study of Mus musculus with 21 samples.

Results

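Proteasome and immunoproteasome genes were examined in splenic T cells with and without constitutively active gp130. The members were the protein-coding mouse genes whose symbols begin with Psma, Psmb, Psmc, Psmd, Psme, Psmf or Psmg followed by a number, which gave 50 of the 51201 genes in the deposited tables. By role they comprised 31 constitutive subunits of the 26S proteasome, 5 interferon-inducible genes (Psmb8, Psmb9, Psmb10, Psme1 and Psme2) and 14 others. The constitutive subunits were 7 alpha-ring, 4 structural beta-ring, 3 catalytic beta-ring, 6 ATPase and 11 non-ATPase genes. Psmc3ip was a match of name alone, since it encodes a partner of meiotic recombinases and no proteasome subunit.

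The L-gp130 mice were L-gp130fl/+;CD4Cre+/-, on a C57BL/6J background at postnatal day 35, in which Cre driven by the Cd4 promoter switches on a constitutively active gp130 allele. The control mice were CD4Cre+/-, of the same strain and age, so both groups carried Cre. Il6st encodes gp130, through which interleukin-6 and its relatives signal, with STAT3 as a main target. Spleen cells gave 6 CD4 libraries of L-gp130 mice and 6 of controls, taken by positive selection on CD4 beads, and 3 CD8 libraries of L-gp130 mice and 6 of controls, taken by negative enrichment. The Cd4 promoter is also active in thymocytes that later become CD8 cells. The labels number the mice within each group, and nothing ties a number in one group to a number in another.

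The 26S proteasome degrades ubiquitin-tagged proteins. Its 20S core is a stack of alpha rings, which form the gate, around beta rings, which hold the catalytic sites, and the 19S cap recognises, unfolds and feeds in substrates. Interferon-gamma and other inflammatory signals induce Psmb8, Psmb9 and Psmb10, which replace the catalytic subunits Psmb5, Psmb6 and Psmb7 in the immunoproteasome and alter the peptides available to MHC class I. Psme1 and Psme2 form the PA28 activator, which docks on the core in place of a cap. Lymphocytes contain much immunoproteasome even at rest.

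In CD4 cells the L-gp130 libraries held 17781085 to 21226510 gene counts and the controls 27855757 to 35869208, so depth separated the genotypes. In CD8 cells L-gp130 libraries held 17217364 to 19476881 and controls 17719183 to 19286396. Labelled males made up 4 of 6 L-gp130 mice and 1 of 6 controls for CD4 cells, and 2 of 3 L-gp130 mice and 4 of 6 controls for CD8 cells. Sex-linked transcripts matched the label in 20 of 21 libraries, the exception being control CD4 replicate 5. Cd4 averaged 731 CPM (gene counts scaled to library size) in L-gp130 CD4 and 755 CPM in control CD4 libraries, and Cd8a 844 CPM in L-gp130 CD8 and 1083 CPM in control CD8 libraries. Cd8a in the CD4 selections averaged 35.996 CPM in L-gp130 mice (range 15.1 to 93.7) and 10.98 CPM in controls. The gp130 target Socs3 had a log2 fold change of 1.55 ± 0.12 (adjusted p = 4.02e-06) in CD4 and 1.79 ± 0.12 (adjusted p = 1.23e-05) in CD8 cells, and Stat3 of 0.63 ± 0.07 (adjusted p = 4.47e-05) and 0.73 ± 0.07 (adjusted p = 0.000199). Il6st had 132 to 339 CPM in L-gp130 CD4 and 348 to 395 CPM in control CD4 libraries, a log2 fold change of -0.32 ± 0.18 (adjusted p = 0.245), and 169.7 to 193 CPM in L-gp130 CD8 and 239 to 291 CPM in control CD8 libraries, -0.52 ± 0.08 (adjusted p = 0.00198). How far these reads include the L-gp130 allele was not determined. L-gp130 CD4 replicate 1 stood apart: its 8 monocyte-macrophage markers summed to 1838 CPM, against 403 to 696 CPM in the other L-gp130 CD4 and 461 to 988 CPM in control CD4 libraries, with no marker at 0, and its 7 T cell markers had the lowest sum of the CD4 libraries at 2011 CPM.

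Levels of different genes were compared in TPM, which are scaled to transcript length, and are given as mean ± SD (n = 6, 6, 3 and 6 libraries). Psmb8, Psme1 and Psme2 were the most abundant members in every group. Psmb8 averaged 580.2 ± 107 TPM in L-gp130 CD4 and 496 ± 22.5 TPM in control CD4 libraries, and 441 ± 7.296 TPM in L-gp130 CD8 and 455 ± 28.4 TPM in control CD8 libraries, and this chymotrypsin-like catalytic subunit ranked first of the 50 members in all 4 groups. The PA28 subunits came next. Psme1 averaged 395 ± 73.8 TPM in L-gp130 CD4 and 349.96 ± 14.2 TPM in control CD4 libraries, and 333 ± 17.9 TPM in L-gp130 CD8 and 348 ± 20.9 TPM in control CD8 libraries. Psme2 averaged 366 ± 80.9 TPM in L-gp130 CD4 and 323 ± 8.602 TPM in control CD4 libraries, and 303 ± 20.2 TPM in L-gp130 CD8 and 309 ± 19.9 TPM in control CD8 libraries. Psmb10, the trypsin-like inducible subunit, ranked between 4 and 6 among the members. Psmb9, the inducible counterpart of Psmb6, was lower, at 221 ± 55.03 TPM in L-gp130 CD4, 183 ± 2.04 TPM in control CD4, 151 ± 0.943 TPM in L-gp130 CD8 and 156 ± 6.73 TPM in control CD8 libraries. Psme1 and Psme2 overlapped in range in each group and could not be ordered. The range of Psmb8 lay above that of Psme1 in 3 groups and overlapped it in L-gp130 CD4 libraries.

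Among the constitutive parts the core genes had higher median levels than the cap genes. The median over the structural beta genes was 182 TPM in L-gp130 CD4, 159 TPM in control CD4, 186 TPM in L-gp130 CD8 and 171 TPM in control CD8 libraries. The alpha-ring median was 158 TPM in L-gp130 CD4, 136 TPM in control CD4, 144 TPM in L-gp130 CD8 and 122 TPM in control CD8 libraries. The ATPase median was 93.8 TPM in L-gp130 CD4, 83.1 TPM in control CD4, 78.3 TPM in L-gp130 CD8 and 68.4 TPM in control CD8 libraries, and the non-ATPase median 77.05 TPM in L-gp130 CD4, 65.9 TPM in control CD4, 74.1 TPM in L-gp130 CD8 and 62.1 TPM in control CD8 libraries. Psmb11, the catalytic subunit of thymic cortical epithelium, and Psma8, an alpha subunit of testis, were close to the detection limit. Their counts lay between 0 and 10 per library and they passed no filter on low counts, which left 48 members tested in each cell type.

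**Figure D1:**
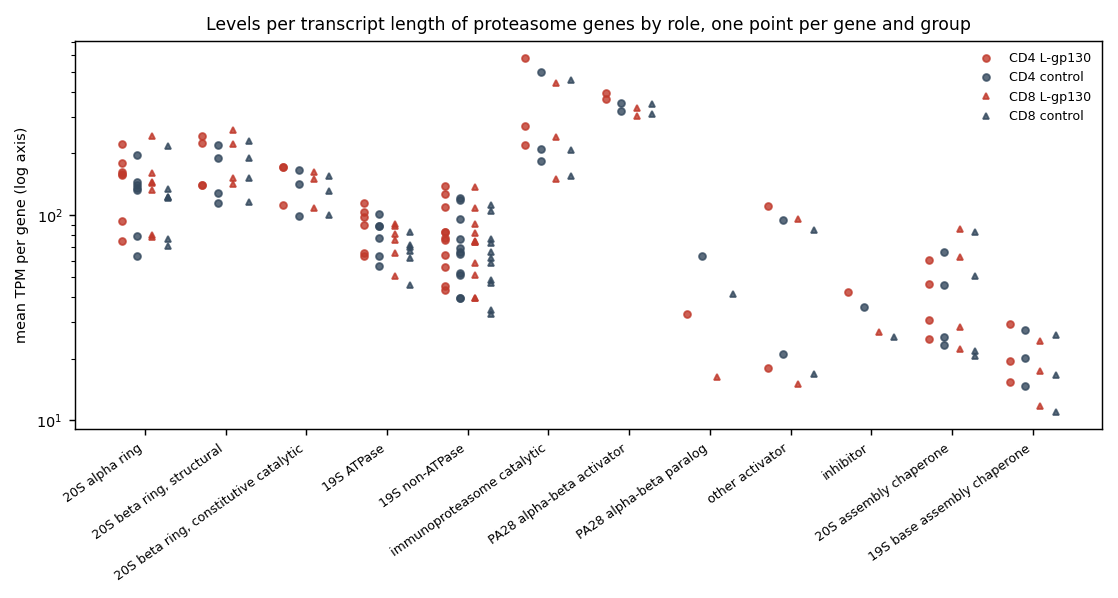
Mean TPM per gene on a log axis, grouped by role, in L-gp130 CD4, control CD4, L-gp130 CD8 and control CD8 libraries. Psma8, Psmb11 and Psmc3ip are not drawn. Psmb8, Psme1 and Psme2 sit at the top in all groups.

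The promoters of constitutive and inducible genes were compared by sequence. RefSeq promoters (GRCm38.p6, 250 bases before to 50 bases after the start) matched 42 of 50 members, all 5 inducible and 25 of 31 constitutive genes among them. Both strands were searched for a STAT-binding GAS-like motif (TTCNNNGAA), the core of the interferon-stimulated element (GAAA, any 2 bases and again GAAA) and the antioxidant response element bound by NRF factors with small Maf partners (TGACNNNGC). The GAS-like motif was present in 1 of 5 inducible (Psmb8) and 1 of 25 constitutive (Psmd2) promoters, against 8.30% of all 32851 promoters. The interferon-stimulated core was found in 1 of 5 inducible (Psme1) and 2 of 25 constitutive (Psmb3 and Psmd4) promoters, against 3.44% of all. The antioxidant motif occurred in 0 of 5 inducible and 4 of 25 constitutive promoters (Psmb5, Psmb6, Psmc6 and Psmd12), against 12.4% of all. A match describes letters in this window and is no binding site. The 5 promoters shown hold 1 of these motifs each, in capitals, and belong to the 2 inducible genes with a match, to a pair of constitutive catalytic subunits and to Psmd2, which rose in both cell types.
Psmb8 promoter, GRCm38.p6 chr17:34197945-34198244, plus strand: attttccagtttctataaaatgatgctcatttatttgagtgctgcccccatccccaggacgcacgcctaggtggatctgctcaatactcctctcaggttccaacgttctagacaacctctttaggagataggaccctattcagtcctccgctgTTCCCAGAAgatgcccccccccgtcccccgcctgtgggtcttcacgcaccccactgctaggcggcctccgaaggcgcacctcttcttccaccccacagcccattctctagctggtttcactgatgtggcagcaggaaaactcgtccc
Psme1 promoter, GRCm38.p6 chr14:55578244-55578543, plus strand: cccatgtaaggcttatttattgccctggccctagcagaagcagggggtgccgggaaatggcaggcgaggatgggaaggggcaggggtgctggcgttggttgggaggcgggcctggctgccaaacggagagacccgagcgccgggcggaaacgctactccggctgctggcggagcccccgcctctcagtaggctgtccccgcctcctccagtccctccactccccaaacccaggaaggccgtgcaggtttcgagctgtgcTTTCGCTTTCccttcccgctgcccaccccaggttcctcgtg
Psmb5 promoter, GRCm38.p6 chr14:54617946-54618245, minus strand: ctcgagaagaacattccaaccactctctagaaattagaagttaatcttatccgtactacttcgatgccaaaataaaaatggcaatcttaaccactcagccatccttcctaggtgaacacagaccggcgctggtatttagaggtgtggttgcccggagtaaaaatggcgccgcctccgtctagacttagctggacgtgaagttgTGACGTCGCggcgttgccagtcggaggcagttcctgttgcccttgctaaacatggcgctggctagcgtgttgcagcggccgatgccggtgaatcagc
Psmb6 promoter, GRCm38.p6 chr11:70525107-70525406, plus strand: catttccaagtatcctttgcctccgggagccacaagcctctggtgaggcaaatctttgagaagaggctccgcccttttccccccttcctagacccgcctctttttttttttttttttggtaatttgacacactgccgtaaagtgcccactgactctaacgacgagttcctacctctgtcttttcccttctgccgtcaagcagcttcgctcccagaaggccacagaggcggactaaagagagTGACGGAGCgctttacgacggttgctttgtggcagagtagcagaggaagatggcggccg
Psmd2 promoter, GRCm38.p6 chr16:20651402-20651701, plus strand: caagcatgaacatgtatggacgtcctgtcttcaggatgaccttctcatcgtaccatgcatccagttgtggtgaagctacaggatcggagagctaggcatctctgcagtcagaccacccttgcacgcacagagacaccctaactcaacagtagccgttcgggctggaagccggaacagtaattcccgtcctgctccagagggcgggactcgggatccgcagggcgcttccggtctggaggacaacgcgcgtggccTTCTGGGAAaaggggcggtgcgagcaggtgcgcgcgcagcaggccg
Counted from the RefSeq start, the capitals begin at position -97 in Psmb8, 10 in Psme1, -47 in Psmb5, -9 in Psmb6 and 5 in Psmd2. The most abundant Psmb8 transcript here starts 473 bases from the RefSeq start, so the Psmb8 window is not that of the main transcript, and for Psme1 the distance is 133 bases. It is 433 bases for Psmb9 and 425 bases for the constitutive Psmd13, whose windows held none of these motifs.

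In CD4 cells the first question was whether the constitutive proteasome differed between L-gp130 and control mice. Of 31 constitutive genes, 10 rose and 0 fell at an adjusted p under 0.05 (edgeR's quasi-likelihood test with sex as covariate, Benjamini-Hochberg adjustment over all 15016 genes tested), against 11.1% of all genes tested that rose and 7.75% that fell. All 31 had a fitted log2 fold change above 0, against 49.5% of all genes tested. Their median was 0.23 (range 0.05 to 0.38), beside -0.01 over all genes tested. Fewer cells of a type and less RNA per cell cannot be told apart in such bulk samples. The genes that rose were 8 of the 17 of the 19S cap and 2 of the 14 of the 20S core. This contrast was not tested, and the median log2 fold change was 0.22 over the cap and 0.25 over the core genes. In 6 of 31, Psmc1, Psmc4, Psmd2, Psmd3, Psmd8 and Psmb2, every L-gp130 library lay above every control, against 7.68% of all genes tested.

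The ATPase ring of the cap unfolds substrates and threads them into the core. Psmc1, whose tail helps to open the gate, had 101, 108 and 137 CPM in L-gp130 CD4 libraries, against 83.4, 90.6 and 97.99 CPM in control CD4 libraries (lowest, median and highest of 6). The groups did not overlap. Its log2 fold change was 0.29 ± 0.09 (adjusted p = 0.0358). Psmc4, another ATPase, had 79.5, 87.5 and 99.8 CPM in L-gp130 CD4 libraries, against 65.5, 72.04 and 78.98 CPM in control CD4 libraries. They did not overlap either, and the log2 fold change was 0.22 ± 0.07 (adjusted p = 0.0388). The other 4 ATPases, Psmc2, Psmc3, Psmc5 and Psmc6, were not called, at log2 fold changes of 0.23, 0.22, 0.16 and 0.14.

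Among the 11 non-ATPase subunits 6 rose. Psmd2, the large base scaffold that receives ubiquitin-like shuttle factors, had 195, 231 and 235 CPM in L-gp130 CD4 libraries, against 177, 182 and 193 CPM in control CD4 libraries. Again no L-gp130 library lay within the control range, and the log2 fold change was 0.26 ± 0.06 (adjusted p = 0.0133). Psmd1, the paired base scaffold, had 85.5, 103 and 117 CPM in L-gp130 CD4 libraries, against 81.2, 85.6 and 86.98 CPM in control CD4 libraries, and its log2 fold change was 0.30 ± 0.09 (adjusted p = 0.0261). All but 1 of its L-gp130 libraries lay above the controls. The lid carries the deubiquitinase that removes ubiquitin from substrates, Psmd14, and its partner Psmd7. Psmd14 had 67.7, 79.8 and 86.9 CPM in L-gp130 CD4 libraries, against 58.8, 63.3 and 67.9 CPM in control CD4 libraries. Its groups met at 1 library, and the log2 fold change was 0.28 ± 0.08 (adjusted p = 0.0216). Psmd7 had 59.4, 73.7 and 92.1 CPM in L-gp130 CD4 libraries, against 51.2, 56.97 and 61.1 CPM in control CD4 libraries, with 5 of 6 above every control and a log2 fold change of 0.35 ± 0.11 (adjusted p = 0.0417).

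Psmd8, a lid subunit that completes lid assembly, gave the smallest adjusted p of all members in CD4 cells. It had 113, 120.2 and 137 CPM in L-gp130 CD4 libraries, against 95.7, 98.4 and 99.6 CPM in control CD4 libraries. The groups did not overlap, and the log2 fold change was 0.27 ± 0.06 (adjusted p = 0.00555), or 20.99% higher. The lid subunit Psmd13 had the largest rise of the constitutive genes, with 78.5, 96.2 and 111 CPM in L-gp130 CD4 libraries, against 64.7, 68.997 and 82.2 CPM in control CD4 libraries. It exceeded every control in 5 of 6 L-gp130 libraries, and the log2 fold change was 0.38 ± 0.09 (adjusted p = 0.0134). Psmd3, a lid subunit whose groups also did not overlap, was not called, at a log2 fold change of 0.17 ± 0.07 (adjusted p = 0.0915). The remaining non-ATPase genes, Psmd4, Psmd6, Psmd11 and Psmd12, had log2 fold changes of 0.13, 0.19, 0.19 and 0.20 and were not called, although all 11 had an unadjusted p under 0.05. Psmd13 shares 10.1% of its exonic bases with Sirt3 on the opposite strand, and unstranded reads there cannot be assigned.

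In the 20S core only Psma6 and Psmb5 were called, although all 14 core genes had a log2 fold change above 0. Psma6, an alpha-ring subunit, had 90.5, 112 and 129.6 CPM in L-gp130 CD4 libraries, against 80.5, 85.3 and 92.6 CPM in control CD4 libraries, with 5 of 6 above every control. Its log2 fold change was 0.34 ± 0.09 (adjusted p = 0.01897). Psmb5, the constitutive chymotrypsin-like site, had 71.6, 89.4 and 107 CPM in L-gp130 CD4 libraries, against 64.2, 70.2 and 73.5 CPM in control CD4 libraries. Every control was exceeded in 5 of 6 L-gp130 libraries, and the log2 fold change was 0.34 ± 0.10 (adjusted p = 0.0347). The other constitutive catalytic subunits were not called. Psmb6, the caspase-like site, had 63.7, 72.6 and 96.1 CPM in L-gp130 CD4 libraries, against 64.7, 67.5 and 72.8 CPM in control CD4 libraries, and its log2 fold change of 0.05 ± 0.10 (adjusted p = 0.738) was the lowest of the 31. Psmb7, the trypsin-like site, had 68.2, 85.5 and 114 CPM in L-gp130 CD4 libraries, against 68.7, 71.3 and 74.9 CPM in control CD4 libraries, with a log2 fold change of 0.25 ± 0.12 (adjusted p = 0.173). Both overlapped between genotypes. Psmb2, a structural beta subunit, did not overlap but was not called, at a log2 fold change of 0.29 ± 0.13 (adjusted p = 0.126). The 6 other alpha genes had values from 0.19 to 0.30 on the log2 scale.

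The count of 10 rested on single libraries more than its direction did. It was 1 without L-gp130 CD4 replicate 6 (Psmd8 alone), 2 without control CD4 replicate 1, the only control CD4 mouse labelled male (Psmd2 and Psmd13), 3 without control replicate 6, 4 without control replicate 4, 5 without control replicate 3, 6 without L-gp130 replicate 2 or 5, and 16 without L-gp130 replicate 4. With L-gp130 replicate 1 and control replicate 5 both left out it was 11, and all 10 genes kept their call. All 10 also kept it with sex read from the sex-linked transcripts Xist and Ddx3y, where 4 others gained a call and the count was thus higher. Without the sex covariate it was 26, and in the 2 L-gp130 and 4 control females alone, an alternative chosen after seeing the data, 8 of the 10 kept their call and 5 others gained one. With the libraries thinned to equal depth it was 8, since Psmc4 (adjusted p = 0.06198) and Psmd7 (adjusted p = 0.0625) lost their calls. All 31 genes stayed above 0 in each of these fits. Calls over all genes tested, 2836 as reported, also changed in number with the library left out, and their range is given below. The 16 cell cycle markers moved with genotype too: all 16 were called higher, with summed levels of 1428 to 3599 CPM in L-gp130 CD4 and 881 to 1519 CPM in control CD4 libraries and no marker at 0. Of the plasma cell markers 3 of 5 tested were called higher, with sums over 6 markers of 169.6 to 274 CPM in L-gp130 CD4 and 98.9 to 145 CPM in control CD4 libraries, and of the B cell markers 3 of 8 were called lower, with sums of 239 to 619 CPM in L-gp130 CD4 and 256 to 948 CPM in control CD4 libraries, none at 0. L-gp130 CD4 replicate 6, whose omission left 1 call, had the highest cell cycle sum of the L-gp130 CD4 libraries, 3599 CPM. It also had the highest sum of 7 erythroid markers, 29258 CPM, against 4979 to 13829 CPM in the other L-gp130 CD4 and 3334 to 19156 CPM in control CD4 libraries, none at 0, and 0 of 7 erythroid markers were called. The part of these markers in the proteasome values was not tested.

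**Figure D2:**
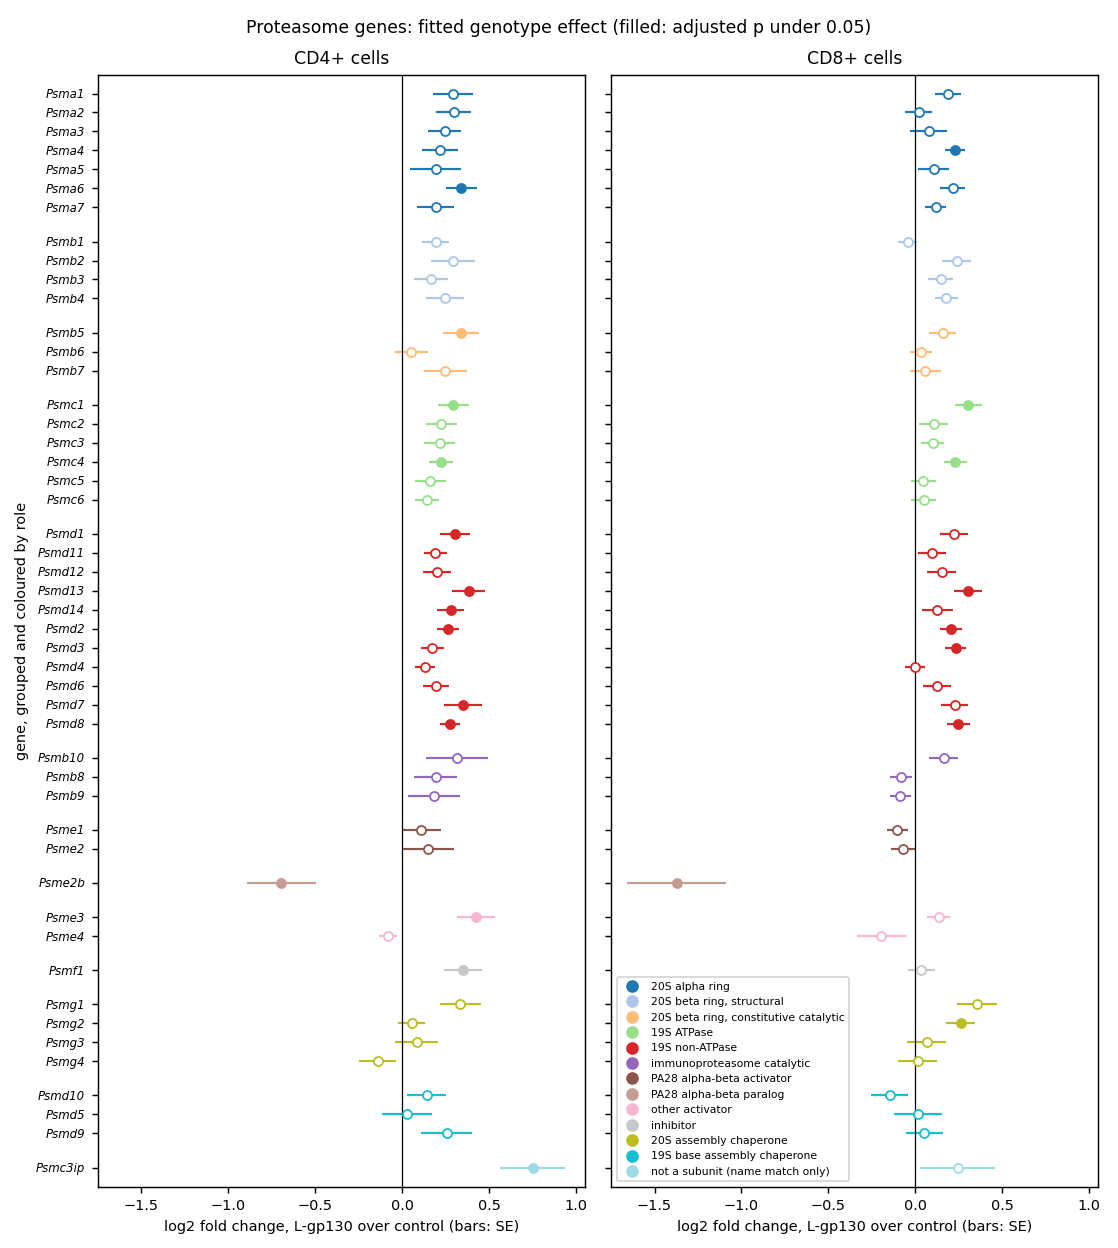
Fitted log2 fold change of L-gp130 over control for each tested member, with its standard error as a bar, by role, in CD4 and CD8 cells; filled points were called at an adjusted p under 0.05. In CD4 cells all constitutive subunits lie above 0, and Psme2b lies lowest in both cell types.

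The inducible genes did not pass the test in CD4 cells. Of 5, 0 rose and 0 fell, beside 11.1% and 7.75% of all genes tested, and with 5 genes 0 calls lay near these shares. Of the 5, 0 had an unadjusted p under 0.05 (edgeR), and DESeq2 called none either. Their log2 fold changes were nonetheless all above 0, against 49.5% of all genes tested. The median was 0.18 (range 0.11 to 0.32), close to that of the constitutive genes. Psmb8 had 330.2, 342 and 553 CPM in L-gp130 CD4 libraries, against 292, 299.6 and 351 CPM in control CD4 libraries, and 2 of 6 L-gp130 libraries lay above every control. Its log2 fold change was 0.19 ± 0.12 (adjusted p = 0.304), with an approximate 95% interval of -0.05 to 0.44. Psmb9 had 151, 174 and 307 CPM in L-gp130 CD4 libraries, against 148, 150.2 and 167 CPM in control CD4 libraries. The groups overlapped, with 5 of 6 above the controls and a log2 fold change of 0.18 ± 0.15 (adjusted p = 0.419). Psmb10 had 124, 137 and 261 CPM in L-gp130 CD4 libraries, against 102, 112 and 125 CPM in control CD4 libraries. All but 1 L-gp130 library lay above every control, and the log2 fold change was 0.32 ± 0.18 (adjusted p = 0.238), the largest of the 5, with an interval of -0.03 to 0.67.

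The PA28 genes had smaller differences. Psme1 had 259, 286 and 438 CPM in L-gp130 CD4 libraries, against 241, 247 and 290.2 CPM in control CD4 libraries, and its log2 fold change was 0.11 ± 0.11 (adjusted p = 0.525). Psme2 had 166, 177 and 306 CPM in L-gp130 CD4 libraries, against 153, 159 and 187 CPM in control CD4 libraries, and its log2 fold change was 0.15 ± 0.15 (adjusted p = 0.501). Psme1 exceeded every control in 3 of 6 L-gp130 libraries and Psme2 in 2 of 6. A single library set the upper end of all 5 genes. L-gp130 CD4 replicate 1 had 307 CPM of Psmb9, against 151 to 206 CPM in the other L-gp130 CD4 libraries, and 261 CPM of Psmb10, against 124 to 156 CPM. Relative to the control mean, its median log2 difference was 0.89 over the inducible genes and 0.56 over the constitutive ones, against 0.07 to 0.43 and 0.07 to 0.37 in the other L-gp130 CD4 libraries. This was the library with the high monocyte-macrophage marker sum, and the part of other cells in its values was not tested. Without it the median of the 5 fitted log2 fold changes was 0.10, again with 0 of 5 called. Without the sex covariate 1 of 5, Psmb10, was called. With sex read from Xist and Ddx3y the median was 0.26, and 0 of 5 were called.

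**Figure D3:**
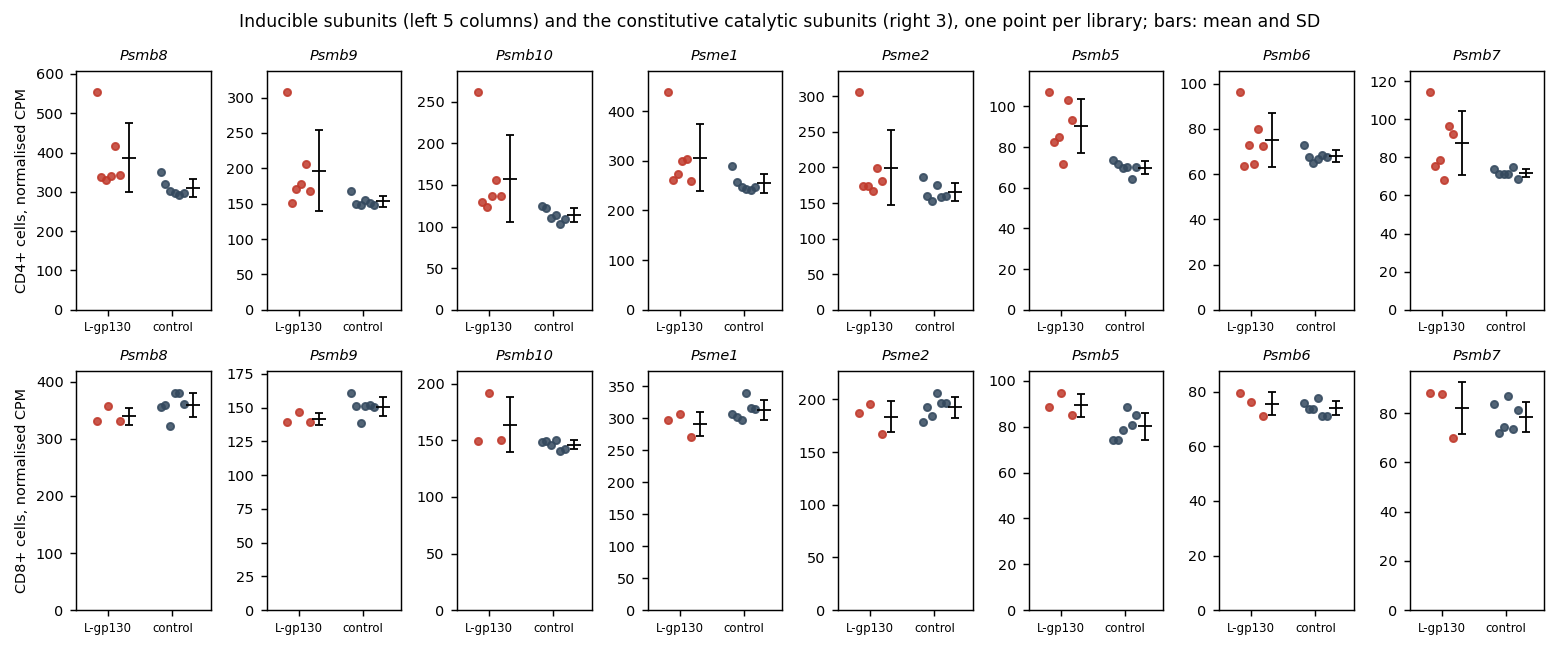
CPM of the 5 inducible genes and the 3 constitutive catalytic subunits in each library, 1 point a library, L-gp130 left of control in each cell type. Beside each group a tick marks the mean and a bar the SD. The highest L-gp130 CD4 point of each inducible gene is replicate 1, and in CD8 cells the groups of the inducible genes overlap.

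**Figure D4:**
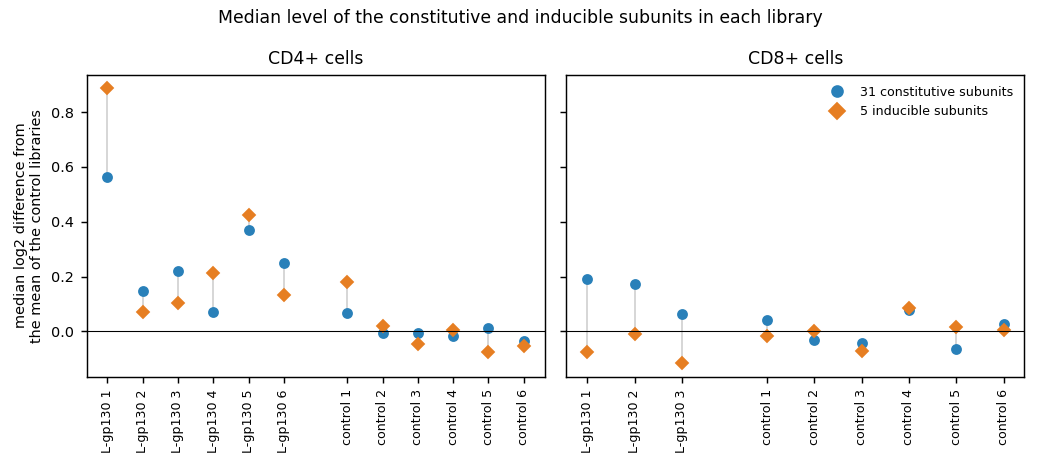
Median log2 difference from the control mean over the 31 constitutive genes and the 5 inducible genes in each library, L-gp130 left of control. All L-gp130 CD4 libraries have constitutive medians above those of the control CD4 libraries (0.071 to 0.563 in L-gp130, -0.034 to 0.066 in controls), and L-gp130 CD8 inducible medians lie between -0.11 and -0.01.

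Of the 14 other members, 12 were tested in CD4 cells, and 3 rose and 1 fell, beside 11.1% and 7.75% of all genes tested. Psme3, the nuclear PA28 gamma activator, had 155, 184 and 266 CPM in L-gp130 CD4 libraries, against 139.9, 157 and 168 CPM in control CD4 libraries. It lay above every control in 5 of 6, and the log2 fold change was 0.42 ± 0.11 (adjusted p = 0.0172). Psmf1, an inhibitor of the core in vitro, had 50.8, 55.9 and 72.3 CPM in L-gp130 CD4 libraries, against 44.1, 46.001 and 50.8 CPM in control CD4 libraries, and its log2 fold change was 0.35 ± 0.11 (adjusted p = 0.0384). Psmc3ip, no proteasome gene, had 3.84, 5.57 and 6.82 CPM in L-gp130 CD4 libraries, against 2.93, 3.33 and 4.19 CPM in control CD4 libraries, with a log2 fold change of 0.75 ± 0.19 (adjusted p = 0.0141). Of its exonic bases 21.2% lie opposite Mlx, which had a mean of 1169.5 reads per library, beside 93.5 reads of Psmc3ip. The activator Psme4, the 19S base chaperones Psmd5, Psmd9 and Psmd10, and the 20S chaperones Psmg1 to Psmg4 were not called. Leaving out L-gp130 CD4 replicate 6 ended the calls of Psme3 (adjusted p = 0.172) and Psmc3ip, leaving out control replicate 1 that of Psmc3ip, and every omission but those of L-gp130 replicates 1, 2, 4 and 5 that of Psmf1.

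Psme2b, a single-exon paralog of Psme2 on chr11:48945354-48946190 (minus strand, GRCm38), was the only member that fell in CD4 cells. It had 7.88, 16.7 and 23.7 CPM in L-gp130 CD4 libraries, against 26.3, 29.6 and 34.2 CPM in control CD4 libraries, and every L-gp130 library was below every control, as in 5.85% of all genes tested. The log2 fold change was -0.69 ± 0.20 (adjusted p = 0.0292), and leaving out L-gp130 replicate 6 or control replicate 1 gave an adjusted p of 0.115 or 0.185. Over 794 aligned bases its transcript was 99.4% identical to the main Psme2 transcript, and 384 of 738 windows of 100 bases were found whole in it, so the split of reads between the pair is uncertain. It also lies within the span of Gm12185 and shares 41 exonic bases with the gene model 9930111J21Rik1, which fell too, at a log2 fold change of -0.63 ± 0.13 (adjusted p = 0.005902) in CD4 and -0.90 ± 0.22 (adjusted p = 0.0173) in CD8 cells.

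In CD8 cells the same question gave 7 of 31 constitutive genes that rose and 0 that fell, against 10.5% of all 14254 genes tested that rose and 10.5% that fell (edgeR). The fitted log2 fold change was above 0 in 29 of 31, against 48.4% of all genes tested, with a median of 0.15 (range -0.04 to 0.30) beside -0.01 over all genes. The genes that rose were 6 of the 17 of the cap and 1 of the 14 of the core. This contrast was not tested, and the median log2 fold change was 0.15 over the cap and 0.13 over the core genes. In 8 of 31 every L-gp130 library lay above every control, against 11.7% of all genes tested. With 3 L-gp130 libraries, the standard error was nevertheless smaller than in CD4 cells for 23 of the 31, with a median over the 31 of 0.074 in CD8 and 0.090 in CD4 cells on the log2 scale.

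Both ATPases that rose in CD4 cells rose here. Psmc1 had 115, 101 and 97.8 CPM in the L-gp130 CD8 libraries, against 76.96, 83.6 and 95.5 CPM in control CD8 libraries (lowest, median and highest of 6). All L-gp130 libraries lay above the controls, and the log2 fold change was 0.30 ± 0.08 (adjusted p = 0.0213). Psmc4 had 85.5, 89.2 and 90.8 CPM in the L-gp130 CD8 libraries, against 68.7, 76.1 and 79.4 CPM in control CD8 libraries, with 3 of 3 above every control and a log2 fold change of 0.23 ± 0.07 (adjusted p = 0.0356). The base scaffold Psmd2 had 195, 200.04 and 182 CPM in the L-gp130 CD8 libraries, against 159.8, 165 and 179.999 CPM in control CD8 libraries. Its groups did not overlap, and its log2 fold change was 0.20 ± 0.06 (adjusted p = 0.0437). Of the lid, Psmd8 had 119.6, 124 and 129.8 CPM in the L-gp130 CD8 libraries, against 98.4, 105 and 111 CPM in control CD8 libraries, again without overlap, at a log2 fold change of 0.25 ± 0.07 (adjusted p = 0.02399). Psmd13 had 97.3, 89.9 and 101 CPM in the L-gp130 CD8 libraries, against 70.3, 75.8 and 88.9 CPM in control CD8 libraries, without overlap, at a log2 fold change of 0.30 ± 0.08 (adjusted p = 0.0255). Psmd3 had 170.1, 157 and 145 CPM in the L-gp130 CD8 libraries, against 124, 135 and 140.4 CPM in control CD8 libraries, without overlap, at a log2 fold change of 0.23 ± 0.06 (adjusted p = 0.01999). The constitutive calls common to both cell types were thus Psmc1, Psmc4, Psmd2, Psmd8 and Psmd13. All 5 belong to the cap, as do 17 of the 31 constitutive genes. The share of all genes tested that rose in both cell types is not given here. Psmc4 was lost in 9 of 12 omissions of a CD4 library and 5 of 9 of a CD8 library, Psmc1 in 8 of 12 and 2 of 9, Psmd2 in 1 of 12 and 7 of 9, Psmd13 in 1 of 12 and 4 of 9, and Psmd8 in 1 of 12 and 3 of 9.

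In the CD8 core the alpha-ring subunit Psma4 rose. It had 99.1, 99.3 and 91.99 CPM in the L-gp130 CD8 libraries, against 79.2, 82.3 and 86.1 CPM in control CD8 libraries, with 3 of 3 above every control, and a log2 fold change of 0.23 ± 0.06 (adjusted p = 0.0207). Psma7 did not overlap either but was not called, at a log2 fold change of 0.12 ± 0.06 (adjusted p = 0.185). The constitutive catalytic subunits were not called. Psmb5 had 88.4, 94.8 and 84.96 CPM in the L-gp130 CD8 libraries, against 73.98, 79.7 and 88.5 CPM in control CD8 libraries, and a log2 fold change of 0.16 ± 0.08 (adjusted p = 0.182). Psmb6 had 79.7, 76.2 and 71.2 CPM in the L-gp130 CD8 libraries, against 71.2, 73.7 and 77.6 CPM in control CD8 libraries, and a log2 fold change of 0.03 ± 0.06 (adjusted p = 0.743). Psmb7 had 88.3, 87.9 and 69.7 CPM in the L-gp130 CD8 libraries, against 71.7, 77.7 and 86.8 CPM in control CD8 libraries, and a log2 fold change of 0.06 ± 0.09 (adjusted p = 0.689). Each of the 3 overlapped between genotypes. The lowest constitutive log2 fold change belonged to Psmb1, a structural beta subunit, at -0.04 ± 0.06 (adjusted p = 0.612).

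The inducible genes did not pass the test in CD8 cells either. Of 5, 0 rose and 0 fell, beside 10.5% each way of all genes tested, and with 5 genes 0 calls lay near these shares. Of the 5, 0 had an unadjusted p under 0.05 in edgeR, and DESeq2 called none. Their median log2 fold change was -0.08 (range -0.10 to 0.16), with Psmb10 alone above 0, beside 48.4% of all genes tested. Psmb8 had 331, 357 and 332 CPM in the L-gp130 CD8 libraries, against 323, 359.7 and 381 CPM in control CD8 libraries. The groups overlapped, and the log2 fold change of -0.08 ± 0.06 (adjusted p = 0.379) had an approximate 95% interval of -0.20 to 0.04. Psmb9 had 139, 147 and 139 CPM in the L-gp130 CD8 libraries, against 138, 151 and 161 CPM in control CD8 libraries, and a log2 fold change of -0.09 ± 0.06 (adjusted p = 0.335) with an interval of -0.20 to 0.03. Psmb10 had 149, 192 and 150.005 CPM in the L-gp130 CD8 libraries, against 140.3, 147 and 150.3 CPM in control CD8 libraries, with 1 of 3 above every control and a log2 fold change of 0.16 ± 0.08 (adjusted p = 0.183). The PA28 gene Psme1 had 297, 307 and 270.5 CPM in the L-gp130 CD8 libraries, against 297, 310.4 and 340.1 CPM in control CD8 libraries, with a log2 fold change of -0.10 ± 0.06 (adjusted p = 0.265). Psme2 had 187, 196 and 167 CPM in the L-gp130 CD8 libraries, against 178, 195 and 206 CPM in control CD8 libraries, with a log2 fold change of -0.07 ± 0.07 (adjusted p = 0.509). Overlap held for all 5 genes.

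Of the 12 other members tested in CD8 cells 1 rose and 1 fell, near the 10.5% of all genes tested that rose and 10.5% that fell. The 20S assembly chaperone Psmg2 had 36.5, 33.1 and 33.4 CPM in the L-gp130 CD8 libraries, against 26.7, 28.8 and 30.2 CPM in control CD8 libraries. The groups did not overlap, and the log2 fold change was 0.26 ± 0.08 (adjusted p = 0.0456), a call kept only without control CD8 replicate 1 or 6. Its partner chaperone Psmg1 did not overlap either but was not called, at a log2 fold change of 0.36 ± 0.12 (adjusted p = 0.0505). Psme2b fell in CD8 cells as well, with 10.1, 8.41 and 8.01 CPM in the L-gp130 CD8 libraries, against 14.3, 21.4 and 32.02 CPM in control CD8 libraries and a log2 fold change of -1.37 ± 0.28 (adjusted p = 0.00852). Every L-gp130 library was below every control, as in 12.4% of all genes tested, and without L-gp130 CD8 replicate 3 the adjusted p was 0.0566. Psme3, Psmf1 and Psmc3ip, which rose in CD4 cells, had log2 fold changes of 0.13 ± 0.06 (adjusted p = 0.168), 0.03 ± 0.08 (adjusted p = 0.787) and 0.24 ± 0.22 (adjusted p = 0.457).

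The 7 constitutive calls in CD8 cells also rested on single libraries. None of the 7 kept its call without L-gp130 CD8 replicate 1 (0 called) or replicate 3 (1 called, Psmd7), 2 did without replicate 2, 4 without control CD8 replicate 5, and 11 genes were called without control CD8 replicate 6. DESeq2 called 12, and 13 were called on Salmon's reads summed per gene. Between 28 and 31 of the 31 genes stayed above 0 in every setting. Calls over all genes tested, 2996 as reported, changed in number with the library left out as well, and their range is given below. The cell cycle markers moved with genotype here too, 15 of 16 called higher, with sums of 1604 to 1906 CPM in L-gp130 CD8 and 926 to 1350.1 CPM in control CD8 libraries and none at 0. The 7 T cell markers summed to 2678 to 2986 CPM in L-gp130 CD8 and 3257 to 4003 CPM in control CD8 libraries, with 4 of 7 called lower, Cd8a and Cd8b1 among them. The 6 plasma cell markers, 1 of them called higher, summed to 129 to 409 CPM in L-gp130 CD8 and 58.7 to 135 CPM in control CD8 libraries, and the 7 dendritic cell markers, 1 called higher, to 59.5 to 113 CPM in L-gp130 CD8 and 40.4 to 54.1 CPM in control CD8 libraries, none at 0. Only 3 of these 7 dendritic cell markers had a log2 fold change above 0, with a median of -0.01. Of the 8 monocyte-macrophage markers 3 were called lower, with a median log2 fold change of -0.94. Their sums were 257 to 437 CPM in L-gp130 CD8 and 315 to 693 CPM in control CD8 libraries, none at 0. The 7 NK cell markers, 1 called higher and 1 lower, summed to 507 to 645 CPM in L-gp130 CD8 and 419 to 523 CPM in control CD8 libraries, none at 0. The part of any of these in the proteasome values was not tested.

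Whether the genotype effect differed between cell types was tested as an interaction over all 21 libraries. The difference was called for 3.46% of all 15758 genes tested (edgeR), 1.83% with a higher and 1.62% with a lower effect in CD4 cells, and for 0 of 48 members, of which 4 had an unadjusted p under 0.05 (Psmd8, Psmb1, Psmf1 and Psmd10). The smallest adjusted p was 0.1895, for Psmd8, at a log2 difference of 0.19 ± 0.07 (CD4 minus CD8). For the inducible genes the differences were 0.25 ± 0.13 for Psmb8, 0.31 ± 0.16 for Psmb9, 0.20 ± 0.19 for Psmb10, 0.23 ± 0.12 for Psme1 and 0.22 ± 0.18 for Psme2, with adjusted p from 0.333 to 0.629. All 5 were above 0 and none passed. Over the 31 constitutive genes the median difference was 0.10, with 29 above 0. A CD4 effect that differs from the CD8 effect was therefore not shown for any member, and no alternative called one.

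Each inducible catalytic subunit was then set against the constitutive subunit it replaces, as a log2 ratio of TPM in each library. The 6 ratios were compared with a 2-sided exact permutation test over libraries and adjusted over the 6 (mean ± SD, n = 6 and 6 in CD4, 3 and 6 in CD8). Unlike the edgeR fits, this test had no sex covariate. Psmb8 exceeded Psmb5 in every group. In CD4 cells Psmb8/Psmb5 was 1.75 ± 0.19 in L-gp130 CD4 and 1.81 ± 0.07 in control CD4 libraries, a difference of -0.07 (exact permutation p = 0.429, adjusted p = 0.429). In CD8 cells it was 1.55 ± 0.03 in L-gp130 CD8 and 1.79 ± 0.10 in control CD8 libraries, a difference of -0.24 (exact permutation p = 0.0238, adjusted p = 0.0714). All 3 L-gp130 CD8 values (1.53 to 1.59) lay below all 6 controls (1.67 to 1.90), and 0.0238 is the smallest p that the 84 splits of these libraries allow.

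Psmb9/Psmb6 in CD4 cells was 0.33 ± 0.18 in L-gp130 CD4 and 0.14 ± 0.04 in control CD4 libraries, a difference of 0.19 (exact permutation p = 0.00649, adjusted p = 0.03896), the only one of the 6 that passed. The groups overlapped (0.18 to 0.64 in L-gp130, 0.10 to 0.19 in controls). L-gp130 replicates 2 and 6, labelled female, had 0.21 and 0.18, and the 4 labelled males 0.19 to 0.64. Sex was unequal between these groups, and its part in this ratio was not tested. The call was lost in 11 of 12 omissions of a library, all but that of control CD4 replicate 4, with differences of 0.13 to 0.22, and with L-gp130 replicate 1 and control replicate 5 both left out the difference was 0.12 (adjusted p = 0.0714). In CD8 cells Psmb9/Psmb6 was -0.11 ± 0.09 in L-gp130 CD8 and 0.01 ± 0.08 in control CD8 libraries, a difference of -0.12 (exact permutation p = 0.119, adjusted p = 0.238), so both genes were near parity per length. Psmb10/Psmb7 was 1.25 ± 0.24 in L-gp130 CD4 and 1.09 ± 0.12 in control CD4 libraries, a difference of 0.15 (exact permutation p = 0.203, adjusted p = 0.305), and 1.15 ± 0.21 in L-gp130 CD8 and 1.06 ± 0.11 in control CD8 libraries, a difference of 0.10 (exact permutation p = 0.381, adjusted p = 0.429). Psmb9 shares 5.80% of its exonic bases with Tap1 on the opposite strand and Psmb7 11.8% with Nek6.

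**Figure D5:**
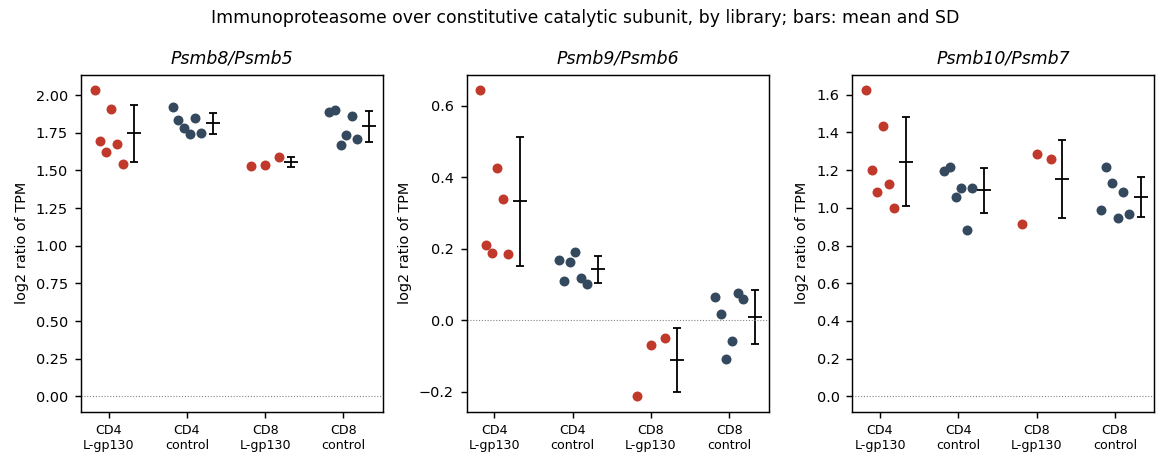
Log2 ratio of TPM of Psmb8 to Psmb5, Psmb9 to Psmb6 and Psmb10 to Psmb7 in each library, L-gp130 left of control in each cell type. Beside each group a tick marks the mean and a bar the SD. Psmb8/Psmb5 in CD8 cells separates the genotypes, with L-gp130 at 1.53 to 1.59 and controls at 1.67 to 1.90, and Psmb9/Psmb6 lies at 0.18 to 0.64 in L-gp130 CD4 and 0.10 to 0.19 in control CD4 libraries and near 0 in CD8 cells.

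Genes that act with the proteasome were counted from lists of known function, beside the 11.1% and 7.75% of all genes tested that rose and fell in CD4 cells and the 10.5% each way in CD8 cells. Of 9 tested proteasome factors not named Psm, 1 rose in each cell type and none fell. In CD4 cells this was Pomp, the chaperone that matures 20S core particles. Pomp averaged 111 ± 20.7 CPM in L-gp130 CD4 libraries and 77.5 ± 10.1 CPM in control CD4 libraries, a log2 fold change of 0.36 ± 0.11 (adjusted p = 0.0428). In CD8 cells it was Txnl1, a thioredoxin-like protein bound to the 19S cap. Txnl1 averaged 61.3 ± 3.401 CPM in L-gp130 CD8 libraries and 49.5 ± 5.49 CPM in control CD8 libraries, a log2 fold change of 0.31 ± 0.09 (adjusted p = 0.0405). Regulators of proteasome genes numbered 6, of which in CD4 cells 1 rose and 2 fell, and in CD8 cells 1 rose and 1 fell. Mafg, a small Maf partner of NRF factors, rose in both. Mafg averaged 65.2 ± 16.5 CPM in L-gp130 CD4 libraries and 34.6 ± 7.04 CPM in control CD4 libraries, a log2 fold change of 0.97 ± 0.21 (adjusted p = 0.00782). Mafg averaged 43.6 ± 6.62 CPM in L-gp130 CD8 libraries and 27.1 ± 3.03 CPM in control CD8 libraries, a log2 fold change of 0.69 ± 0.11 (adjusted p = 0.00225). Ngly1, the deglycosylating enzyme needed to activate the NRF factor Nfe2l1, fell in both, at log2 fold changes of -0.27 ± 0.08 (adjusted p = 0.0397) in CD4 and -0.60 ± 0.08 (adjusted p = 0.000707) in CD8 cells. Nfe2l2, the NRF factor of oxidative stress, fell in CD4 cells, at a log2 fold change of -0.26 ± 0.08 (adjusted p = 0.0454), and was 0.05 ± 0.06 (adjusted p = 0.584) in CD8 cells. Nfe2l1, which drives proteasome genes when degradation is blocked, was not called, at log2 fold changes of 0.10 ± 0.09 (adjusted p = 0.476) in CD4 and -0.27 ± 0.12 (adjusted p = 0.11998) in CD8 cells.

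The class I peptide pathway uses the peptides that proteasomes release. In CD4 cells 3 of 13 genes rose and 0 fell, and in CD8 cells 1 rose and 1 fell. The CD4 genes were folding factors of the endoplasmic reticulum that load class I molecules, with log2 fold changes of 0.50 ± 0.12 (adjusted p = 0.0109) for Calr, 0.37 ± 0.10 (adjusted p = 0.0181) for Pdia3 and 0.33 ± 0.09 (adjusted p = 0.0189) for Canx. In CD8 cells Calr rose, at a log2 fold change of 0.19 ± 0.06 (adjusted p = 0.0442), and B2m, the class I light chain, fell. B2m averaged 1592 ± 89.9 CPM in L-gp130 CD8 libraries and 2082 ± 127 CPM in control CD8 libraries, a log2 fold change of -0.39 ± 0.06 (adjusted p = 0.00249). Tap1, Tap2 and Tapbp, the peptide transporter and its partner, and the class I activator Nlrc5 were not called in either cell type. Nlrc5 had log2 fold changes of 0.20 ± 0.10 (adjusted p = 0.178) in CD4 and -0.04 ± 0.08 (adjusted p = 0.756) in CD8 cells. Tap1, which lies between Psmb9 and Psmb8 on chromosome 17, had -0.02 ± 0.16 (adjusted p = 0.951) in CD4 and -0.13 ± 0.06 (adjusted p = 0.175) in CD8 cells on the same scale.

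Of 15 regulators of interferon signalling, 3 rose and 3 fell in CD4 cells, and 2 rose and 3 fell in CD8 cells. Socs1, which restrains JAK kinases, rose in both. Socs1 averaged 82.4 ± 18.4 CPM in L-gp130 CD4 libraries and 37.5 ± 2.99 CPM in control CD4 libraries, a log2 fold change of 1.03 ± 0.13 (adjusted p = 0.000226). Socs1 averaged 67.4 ± 9.43 CPM in L-gp130 CD8 libraries and 47.6 ± 5.85 CPM in control CD8 libraries, a log2 fold change of 0.50 ± 0.11 (adjusted p = 0.0122). Ifngr2, the signalling chain of the interferon-gamma receptor, fell in both. Ifngr2 averaged 35.5 ± 8.36 CPM in L-gp130 CD4 libraries and 55.6 ± 4.78 CPM in control CD4 libraries, a log2 fold change of -0.77 ± 0.15 (adjusted p = 0.00385). Ifngr2 averaged 15.1 ± 2.06 CPM in L-gp130 CD8 libraries and 35.6 ± 5.26 CPM in control CD8 libraries, a log2 fold change of -1.24 ± 0.14 (adjusted p = 0.0003503). Ifnar2, a chain of the type I receptor, rose in CD4 cells at a log2 fold change of 0.27 ± 0.06 (adjusted p = 0.007599), and the kinase Jak1 fell in CD8 cells at -0.35 ± 0.06 (adjusted p = 0.00392). The remaining called genes, named after their values were seen, were Jak2 (higher), Irf9 and Ifnar1 (lower) in CD4 cells and Irf7 (lower) in CD8 cells. Irf1, which activates the inducible subunit genes, had a log2 fold change of 0.28 ± 0.22 (adjusted p = 0.392) in CD4 cells and rose in CD8 cells, at 0.28 ± 0.07 (adjusted p = 0.0217). Of 15 ubiquitin and p97 genes, 2 rose in CD4 cells, the unfoldase Vcp at a log2 fold change of 0.29 ± 0.06 (adjusted p = 0.006597) and the shuttle factor Rad23b at 0.26 ± 0.08 (adjusted p = 0.0284). In CD8 cells 1 fell, the ubiquitin precursor Rps27a, at -0.17 ± 0.05 (adjusted p = 0.0445).

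Single libraries decided many of these calls, and calls over all genes tested also changed in number with the library left out, as given below. Leaving out L-gp130 CD4 replicate 6 ended 13 of the 15 CD4 calls, all but Socs1 and Ifngr2. Leaving out L-gp130 CD4 replicate 2 ended those of Canx, Ifnar1, Irf9, Nfe2l2, Pomp and Rad23b, and leaving out control CD4 replicate 1 those of Ifnar1, Mafg, Nfe2l2, Ngly1, Pomp and Rad23b. Control CD4 replicates 2 and 5 each decided Nfe2l2, Ngly1 and Pomp, and control CD4 replicate 6 Canx, Nfe2l2, Pomp and Rad23b. L-gp130 CD4 replicates 3 and 5 and control CD4 replicates 3 and 4 decided 1 or 2 of Nfe2l2, Pomp and Rad23b. In CD8 cells L-gp130 replicates 2 and 3 ended the same 6 of 11 calls, those of Calr, Irf1, Irf7, Rps27a, Socs1 and Txnl1. L-gp130 CD8 replicate 1 and control CD8 replicates 1, 3 and 5 ended those of Calr, Irf7, Rps27a and Txnl1, and the other control CD8 replicates 1 to 3 of these 4. Ifngr2, Jak1, Mafg, Ngly1 and B2m kept their CD8 calls in all 9 omissions.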

How the data were processed

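Polyadenylated RNA of 21 mouse spleen T cell libraries was analysed. The submitters' processing notes name build GRCm38, Salmon 1.5.2, edgeR 3.34.1, Trimmomatic 0.39 and cutadapt 3.4 without role or order. The annotation release was not given in the sources used here. Per the file headers, the authors deposited Salmon's estimated counts per transcript and TPM for each library. The authors also deposited estimated counts per gene, 1 table per cell type. The deposited tables of normalised CPM were not used. Symbols and positions came from GENCODE mouse release M21, in which 51115 of 51201 gene IDs had a symbol, and promoters from RefSeq.

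Estimated gene counts were rounded and tested in each cell type by edgeR 4.0.16 (R 4.3.3) with its robust quasi-likelihood F test, 2-sided, after filterByExpr and TMM, with labelled sex as covariate. P-values were Benjamini-Hochberg adjusted over all genes tested, with calls at an adjusted p under 0.05. Fold changes are L-gp130 over control, and their standard error (SE) is the size of that log2 value divided by the root of F. Approximate 95% intervals are 1.96 SE. Group levels are TMM-normalised CPM, mean ± SD. The 2 gene tables may have been scaled separately, so the interaction used transcript-level Salmon reads added up per gene. The lowest chi-square per gene between libraries of a group was 6.73, so none looked like a copy. P-values treat each library as its own mouse, as labelled. Intervals cover spread among these libraries only.

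The text names the 5 inducible and 3 constitutive catalytic genes, up to 16 called members per cell type, members without overlap, up to 3 called genes per functional list, and fixed regulators, 1 of which is not reported here. Members and lists were chosen with earlier results of these data known. The fits were tested on simulated counts without a sex effect and with changes larger than those of the constitutive and inducible genes. That test does not cover effects as small as theirs. Alternatives were other normalisations, DESeq2 1.42.0, filters, no or other sex covariate, thinned depth, Salmon reads, a replicate block and leaving out libraries.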

Additional observations from a re-analysis of the deposited data

Results flagged for a closer look

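A sample far from the others of its group, by Dixon's test at the 95% level, was found in 10 of 153 groups of values, and chance flags about 1 in 20 groups. Of these, 7 were the same library, L-gp130 CD4 replicate 1, which was high each time. It had 123 CPM of Psma3, against 85.5 to 95.9 CPM in the other L-gp130 CD4 libraries, 113 CPM of Psma5, against 58.9 to 72.7 CPM in the other L-gp130 CD4 libraries and 96.3 CPM of Psmb2, against 55.8 to 69.8 CPM in the other L-gp130 CD4 libraries. It had 307 CPM of Psmb9, against 151 to 206 CPM in the other L-gp130 CD4 libraries, 261 CPM of Psmb10, against 124 to 156 CPM in the other L-gp130 CD4 libraries, 438 CPM of Psme1, against 259 to 304 CPM in the other L-gp130 CD4 libraries and 306 CPM of Psme2, against 166 to 199 CPM in the other L-gp130 CD4 libraries. Its monocyte-macrophage marker sum was the highest of the CD4 libraries, and its part in these values was not tested.

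L-gp130 CD4 replicate 6, whose omission ended most CD4 calls and which had the highest cell cycle and erythroid marker sums of the L-gp130 CD4 libraries, had 266 CPM of Psme3, against 155 to 194 CPM in the other L-gp130 CD4 libraries. Control CD4 replicate 1 had 290.2 CPM of Psme1, against 241 to 258 CPM in the other control CD4 libraries. Control CD8 replicate 5 had 105 CPM of Psmd4, against 110.4 to 113 CPM in the other control CD8 libraries. The flagged groups include no L-gp130 CD8 libraries. There Psmb10 had 149, 150.005 and 192 CPM (lowest, median and highest of 3), so those libraries cannot be read as free of outliers.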

How the results depend on the processing

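Directions of the constitutive genes held better than their calls. All 31 constitutive and all 5 inducible genes stayed above 0 in CD4 cells under every setting run, and 28 to 31 constitutive and 1 of 5 inducible genes did in CD8 cells. Of the single-gene values recomputed, 6720 kept their direction and side of the threshold, 291 lost and 139 gained a call in the same direction, and 269 changed sign, none of them called in either fit; the causes were not tested.

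At an adjusted p under 0.01, calls fell in number to 1272 of all genes in CD4 and 1249 in CD8 cells (2836 and 2996 as reported), to 1 constitutive gene, 1 member up and 0 down in CD4 cells (10, 13 and 1) and to 0 constitutive genes and 0 members up in CD8 cells (7 and 8). With no filter on low counts, CD4 calls were 3 constitutive genes and 5 members up, and CD8 calls 3 and 3. Without the sex covariate CD4 calls were 26 constitutive genes, 1 inducible gene and 31 members up, and the CD4 medians 0.29 (constitutive) and 0.32 (inducible). DESeq2 called 12 constitutive genes and 14 members up in CD8 cells, and Salmon reads 13 and 16. The interaction called 545 genes as reported, 353 on the joined gene tables and 888 without L-gp130 CD4 replicate 1 and control CD4 replicate 5, where Psmb9/Psmb6 in CD4 cells differed by 0.12.

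Mouse numbers do not pair the samples: same-numbered libraries correlated at -0.205 to 0.151 in CD4 and -0.056 to 0.178 in CD8 cells, and 1 library number in each was best matched by its own. With the replicate block, medians in CD4 cells were 0.33 (constitutive) and 0.34 (inducible), the inducible CD8 median was -0.025 (-0.08 as reported), the interaction called 268 genes, and 9 (CD4) and 6 (CD8) constitutive genes rose.

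Leaving out each library, genes called ranged from 1411 to 3642 (CD4), 1374 to 2967 (CD8) and 236 to 984 (interaction). In CD4 cells constitutive genes up ranged from 1 to 16, members up from 1 to 19 and members down from 0 to 1, with medians of 0.20 to 0.26 (constitutive) and 0.10 to 0.21 (inducible). In CD8 cells these were 0 to 11, 0 to 13 and 0 to 1, with medians of 0.12 to 0.18 and -0.11 to -0.05. Ratio differences ranged from -0.12 to -0.03 (Psmb8/Psmb5), 0.13 to 0.22 (Psmb9/Psmb6) and 0.08 to 0.20 (Psmb10/Psmb7) in CD4, and from -0.26 to -0.22, -0.15 to -0.07 and 0.03 to 0.22 in CD8 cells, in the same order.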

Other observations

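Several members were read from more than 1 main transcript in Salmon's estimates (mean ± SD, n = 6, 6, 3 and 6), given as values without a test. Psmb8-203 had 314 ± 63.5 TPM in L-gp130 CD4, 269 ± 23.6 TPM in control CD4, 244 ± 10.1 TPM in L-gp130 CD8 and 265 ± 29.2 TPM in control CD8 libraries. Psmb8-205 had 169.8 ± 38.01 TPM in L-gp130 CD4, 135 ± 12.3 TPM in control CD4, 85.7 ± 9.14 TPM in L-gp130 CD8 and 88.97 ± 8.75 TPM in control CD8 libraries. Psmb8-201 had 24.7 ± 8.04 TPM in L-gp130 CD4, 24.02 ± 6.79 TPM in control CD4, 42.9 ± 5.97 TPM in L-gp130 CD8 and 33.95 ± 6.67 TPM in control CD8 libraries. Of the main Psmb8 transcripts, Psmb8-205 was lower and Psmb8-201 higher in the CD8 than in the CD4 libraries of both genotypes. Psmb10-201 had 119 ± 31.4 TPM in L-gp130 CD4, 96.2 ± 8.62 TPM in control CD4, 119 ± 5.38 TPM in L-gp130 CD8 and 111 ± 7.43 TPM in control CD8 libraries, and Psmb10-205 had 122 ± 40.8 TPM in L-gp130 CD4, 92.8 ± 7.85 TPM in control CD4, 91.5 ± 17.5 TPM in L-gp130 CD8 and 74.1 ± 7.42 TPM in control CD8 libraries.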
